A study of Mus musculus with 26 samples.

Results

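A set of 10 genes of the proteoglycan system were described in mouse MLL-AF9 leukemia lines with and without added SETDB1. The set comprised 3 glypican genes (Gpc1, Gpc3, Gpc4), 3 syndecan genes (Sdc1, Sdc3, Sdc4), the serglycin gene Srgn, the versican gene Vcan and 2 heparan sulfate N-sulfotransferase genes (Ndst1, Ndst2). These 10 genes, of 54146 gene identifiers in each count file, were matched by mouse symbol, and each symbol matched 1 identifier. They were selected on measured values of this same contrast, read counts in MA9+SETDB1 against MA9+EV. Their values are therefore given as a description, without p-values. Which of them the fit over all genes called is stated beside the share of all genes called and supports nothing, and test results are read only for other genes. The lists of those other genes were also chosen with earlier results of these data known.

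Both arms began as lineage-depleted mouse bone marrow carrying a retroviral MLL-AF9 (MA9) fusion oncogene, so the control arm is also leukemic. One arm received SETDB1, a histone H3 lysine 9 methyltransferase, and the other the MSCVpuro empty vector (EV). Cells were selected with puromycin for about 3 to 6 weeks in medium with the cytokines IL-3 and SCF and were cultured for 8 to 12 weeks. Poly-A RNA was sequenced from 3 libraries per arm, and the 20 chromatin samples of the series were not analysed here. Mouse strain, age and sex, and the number of separate transductions, are not stated in the labels. The p-values therefore measure the spread between these libraries, which may be partly technical.

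Proteoglycans are proteins that carry long sulfated sugar chains. Glypicans are held at the cell surface by a lipid anchor and syndecans by a membrane-spanning segment, and both carry mainly heparan sulfate, which binds growth factors and cytokines. Serglycin is the proteoglycan of secretory granules in blood cells, where its chains hold proteases and amines. In chain synthesis, a linker sugar sequence is built on the core protein, polymerases extend the chain, N-deacetylase/N-sulfotransferases of the NDST family add the first sulfates, and later enzymes epimerize and sulfate the chain further.

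The RNA libraries held between 18070482 and 22561757 gene counts. Setdb1 levels in CPM (counts per 1000000 gene counts, on a scaled total) were 104.6 to 108.9 in the MA9+EV and 474.6 to 607.1 in the MA9+SETDB1 libraries. Replicate 1 of each arm stood apart from replicates 2 and 3. The median absolute log2 difference over tested genes was 0.29 and 0.287 between replicate 1 and the others in MA9+EV and 0.347 and 0.357 in MA9+SETDB1, against 0.0893 and 0.0947 between replicates 2 and 3. Summed levels of 10 cell type marker lists were set against the label of an acute myeloid leukemia line. The 12 neutrophil-lineage markers summed to 14298 to 18779 CPM in MA9+EV and 420.0 to 560.3 CPM in MA9+SETDB1, and the 10 monocyte and macrophage markers to 2470 to 4225 and 791.9 to 1808 CPM. Of the neutrophil-lineage markers, 12 averaged over 1 CPM in the control arm and 6 with SETDB1. Ly6g went against its list, from a mean of 10.6 to 434.7 CPM, and made up most of the MA9+SETDB1 sum. Among the monocyte and macrophage markers Adgre1 (11.1 to 922.6 CPM), Cd68 (22.4 to 117.9 CPM) and Csf1r (4.20 to 20.2 CPM) likewise had higher values in MA9+SETDB1. The 10 mast cell and basophil markers summed to 166.7 to 208.9 CPM and 11021 to 11502 CPM (Mrgprb1 at 0 in all libraries), although Kit of this list fell from a mean of 114.1 to 1.07 CPM. The 10 erythroid markers summed to 0.785 to 1.51 and 1554 to 1905 CPM (Slc4a1 and Alas2 at 0 in MA9+EV), and the 8 megakaryocyte markers to 2.73 to 3.53 and 789.9 to 857.6 CPM. Sums for cell types that carry many of these proteoglycans were 18.1 to 44.4 and 42.4 to 162.7 CPM for 10 stromal markers and 0.248 to 0.756 and 215.0 to 341.6 CPM for 6 epithelial markers. The stromal sums were mostly Pdgfrb and Thy1. In MA9+SETDB1, Col1a2, Col3a1 and Lum held 1, 3 and 2 counts and Cxcl12 none. Col1a1 held 6 counts over MA9+EV and 7 over MA9+SETDB1, and Dcn went from 0 to 24. The epithelial sum in MA9+SETDB1 was mostly Cdh1 (202.1 to 331.6 CPM), with 2 counts of Krt8, 3 of Krt14 and none of Krt5. Epcam and Krt18 of this list rose as well, from 9 to 475 counts and from 0 to 237. Sums were 233.1 to 366.9 and 126.7 to 135.7 CPM for 8 endothelial markers, of which Cdh5, Kdr, Tek and Emcn were at 0 in all 6 libraries. Pecam1 made up most of the endothelial sums, at means of 319.8 and 128.9 CPM. The 10 B and plasma cell markers summed to 43.9 to 67.5 and 2.81 to 3.47 CPM (Ms4a1, Pax5 and Prdm1 among those at 0 in all), and the 8 T and NK cell markers to 17.8 to 24.3 and 22.9 to 46.3 CPM (Cd3e, Cd4, Cd8a, Ncr1 and Klrb1c at 0 in all). The part of these lineage differences in the results below was not tested, and fewer cells of a type and less RNA per cell cannot be told apart in these bulk libraries.

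Promoter sequences are shown for Gpc4 and Gpc3, adjacent genes that were both near or at 0 in MA9+EV, and for Srgn, which has 2 start sites in the table, as a contrast to them in base composition. Each run covers the 250 bases before the start site, 5′ to 3′ on the gene's strand, from RefSeq on GRCm38.p6. Capitals mark matches, on either strand, to the GC box GGGCGG, the ETS core GGAAGT, the RUNX core TGTGGT or the TATA box TATAAA. The Gpc4 window is chrX:52164924-52165173, minus strand, the Gpc3 window is chrX:52613975-52614224, minus strand, and the Srgn windows are chr10:62527446-62527695 and chr10:62507758-62508007, both minus strand.
Gpc4: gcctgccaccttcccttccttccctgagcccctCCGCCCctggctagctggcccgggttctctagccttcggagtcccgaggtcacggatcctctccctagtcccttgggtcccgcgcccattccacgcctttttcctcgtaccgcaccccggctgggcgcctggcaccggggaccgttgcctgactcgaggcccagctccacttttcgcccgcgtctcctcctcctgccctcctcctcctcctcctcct
Gpc3: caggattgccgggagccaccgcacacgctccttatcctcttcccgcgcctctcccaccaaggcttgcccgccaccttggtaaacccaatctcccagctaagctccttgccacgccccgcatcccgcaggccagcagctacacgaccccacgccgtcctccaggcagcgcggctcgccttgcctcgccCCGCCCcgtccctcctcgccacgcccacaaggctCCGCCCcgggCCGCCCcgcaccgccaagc
Srgn, start 1: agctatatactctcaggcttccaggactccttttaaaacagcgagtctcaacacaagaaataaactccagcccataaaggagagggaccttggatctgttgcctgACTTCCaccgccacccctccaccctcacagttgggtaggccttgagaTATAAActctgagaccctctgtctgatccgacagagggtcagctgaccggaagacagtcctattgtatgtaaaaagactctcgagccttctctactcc
Srgn, start 2: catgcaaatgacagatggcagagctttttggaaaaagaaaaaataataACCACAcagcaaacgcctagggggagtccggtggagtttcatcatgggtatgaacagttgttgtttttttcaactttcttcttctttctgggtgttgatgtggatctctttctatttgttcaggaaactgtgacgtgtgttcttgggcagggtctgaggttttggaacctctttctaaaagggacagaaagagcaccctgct

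The Gpc4 and Gpc3 windows were rich in CpG pairs and the Srgn windows were not. Gpc4 had 18 CpG pairs, more than 78.3% of the 32851 promoters in the table, and Gpc3 had 25, more than 89.3%. The richness was not particular to the glypican pair, since Sdc3 had 32 and Sdc4 had 19. The Srgn windows had 5 and 3, more than 44.4% and 29.0% of promoters. The GC content was 68.4% for Gpc4, 71.6% for Gpc3, and 49.6% and 42.8% for Srgn. The table held 9 promoters of 8 members, with a median GC content of 66.0% and a median of 15 CpG pairs, against 52.4% and 6 over all promoters. A GC box was present in 77.8% of the member promoters and 32.7% of all, an ETS core in 22.2% and 19.7%, a RUNX core in 11.1% and 14.0%, and a TATA box in 11.1% and 12.4%. The GATA motif AGATAA, also searched on both strands, occurred in no member promoter and in 9.99% of all. Of the E-boxes searched likewise, neither occurred in a member promoter, while CACGTG was found in 6.02% of all promoters. The other E-box, CATGTG, was found in 12.3% of them. No searched motif overlapped another in the printed sequences. These matches describe letters in the window and were not tested as binding sites.

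The glypican genes Gpc4 and Gpc3 had the widest separation between the arms of the 10 genes. Gpc4 (ENSMUSG00000031119.4, chrX:52051007-52164923) had 0 counts in all 3 MA9+EV libraries and 121.7, 174.8 and 167.5 CPM in MA9+SETDB1 replicates 1, 2 and 3. This was 8271 counts against 0, at least 3509-fold higher when the floor of 3 counts over the arm stands for 0. Glypican-4 binds growth factors such as FGFs and Wnts at the cell surface. Gpc3 (ENSMUSG00000055653.13, chrX:52272426-52613974) measured 0.124, 0.0415 and 0 CPM in the MA9+EV replicates and 11.02, 32.6 and 31.2 CPM in the MA9+SETDB1 replicates. These were 4 counts against 1333, and the arm means differed 452-fold, with a log2 fold change of 8.60 (SE 0.765). Without MA9+EV replicate 1, which held most of the few Gpc3 counts of that arm, the fitted value was 9.74. Glypican-3 modulates Wnt and Hedgehog signalling and is known as a fetal protein that reappears in liver cancer. The arms did not overlap for either gene, and the lowest MA9+SETDB1 value was that of replicate 1 for both.

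Within the MA9+SETDB1 libraries the glypican pair did not keep a fixed proportion. Gpc4 had 11.04 times the counts of Gpc3 in replicate 1 and 5.37 times in each of replicates 2 and 3. Gpc4 and Gpc3 are neighbours on the X chromosome, 107.5 kb apart. In a window reaching 500 kb beyond both genes, a width chosen after the values were seen, 32 genes were measured and 20 of them had no counts in any library. The other tested genes in the window were 3, all on the Gpc3 side, and none was called different between the arms, against 53.5% of all tested genes. The chromatin reader gene Phf6 averaged 50.5 ± 6.98 CPM (SD, n = 3) in MA9+EV and 47.6 ± 7.30 in MA9+SETDB1 (log2 fold change -0.09, SE 0.157, adjusted p = 0.667 by edgeR's quasi-likelihood test). The purine salvage gene Hprt averaged 308.8 and 241.4 CPM (log2 fold change -0.36, adjusted p = 0.141), and C430049B03Rik had an adjusted p of 0.994. On the Gpc4 side the nearest tested gene, the splicing factor gene Mbnl3, lay outside the window, 845.0 kb away, and fell from a mean of 46.3 to 19.5 CPM (log2 fold change -1.25, SE 0.363, adjusted p = 0.0244). Usp26, which failed the filter on low counts, went from 0 counts to 31. The 6-O-sulfotransferase gene Hs6st2 lies in the same window and was at 0 in all 6 libraries.

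**Figure D1:**
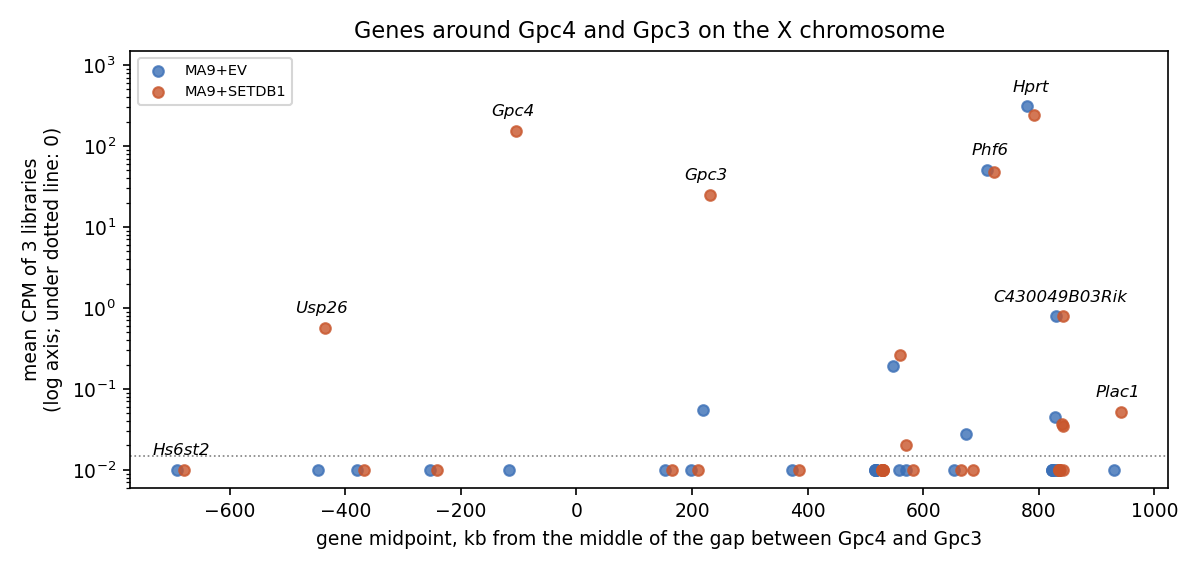
Mean CPM of the 3 libraries of each arm (vertical log axis, with 0 placed under the dotted line) for the genes measured around Gpc4 and Gpc3, against the distance of each gene's midpoint in kb from the middle of the gap between them. Gpc4 and Gpc3 have high orange points (MA9+SETDB1) and low or zero blue points (MA9+EV), while the paired points of Phf6, Hprt and C430049B03Rik lie close together.

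Gpc1 (ENSMUSG00000034220.7, chr1:92831645-92860211) differed less between the arms than the other glypicans. It measured 1.86, 2.20 and 2.37 CPM in MA9+EV and 2.52, 4.44 and 4.42 CPM in MA9+SETDB1, a log2 fold change of 0.82 (SE 0.313). The arms did not overlap, though MA9+SETDB1 replicate 1 lay close to the highest MA9+EV value. Its locus overlaps Ankmy1 by 372 bases and 3 RNA genes (Gm29481, Gm29480 and Mir149), and no strand setting for the counting is stated in the labels, so reads of Gpc1 and these genes may be mixed. The loci of Gpc3 (A630012P03Rik, Mir6384, Mir717), Srgn (Gm51804) and Vcan (Gm4117, Gm16318) overlap other annotated genes likewise.

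Syndecan genes were low in counts, and their directions differed. Sdc3 (ENSMUSG00000025743.14, chr4:130792537-130826318), known best from neural cells, measured 0.661, 5.97 and 4.18 CPM in MA9+EV and 0.0559, 0.609 and 0.675 CPM in MA9+SETDB1. The fitted log2 fold change was -2.99 (SE 0.972), but MA9+EV replicate 1 fell within the range of MA9+SETDB1, so the arms overlapped. Within each pair of libraries with the same replicate number the MA9+SETDB1 value was the lower, and with the replicate block the fitted value was -3.005. Leaving out 1 library at a time moved it between -3.49 and -2.42. Sdc4 (ENSMUSG00000017009.3, chr2:164424247-164443188), a focal adhesion component in adherent cells, measured 0, 0.166 and 0.151 CPM in MA9+EV and 0, 1.04 and 1.51 CPM in MA9+SETDB1. It had no counts in replicate 1 of either arm and totalled 7 counts against 46. Sdc1 (ENSMUSG00000020592.14, chr12:8771396-8793716), the plasma cell and epithelial syndecan CD138, had 1 count over MA9+EV and 8 over MA9+SETDB1. Its libraries measured 0, 0 and 0.0504 CPM against 0.336, 0.122 and 0 CPM, so the arms overlapped. The ratio of normalized counts, 10.2, had a 95% counting interval of 1.37 to 452, which leaves out the spread between libraries. Sdc1 and Sdc4 failed the filter on low counts and were not fitted, and 3 counts correspond to 0.124 to 0.183 CPM in a single library.

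Srgn (ENSMUSG00000020077.14, chr10:62493833-62527445) was higher in every MA9+SETDB1 library. It measured 1741, 2450.1 and 2478 CPM in MA9+EV and 4077, 7993 and 7654 CPM in MA9+SETDB1, with arm means of 2223 ± 417.9 and 6575 ± 2170 (SD, n = 3). The log2 fold change was 1.56 (SE 0.305), and leaving out 1 library at a time gave 1.40 to 1.83. Srgn alone took 0.187%, 0.265% and 0.271% of all gene counts in MA9+EV and 0.403%, 0.709% and 0.685% in MA9+SETDB1. Replicate 1 was the lowest library of both arms, and the arms did not overlap. The nearest tested genes on each side did not pass the test: the retromer gene Vps26a, 7.03 kb away, had a log2 fold change of 0.04 (SE 0.088, adjusted p = 0.758) and the RNA helicase gene Ddx21 0.15 (SE 0.107, adjusted p = 0.267).

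Vcan (ENSMUSG00000021614.16, chr13:89655309-89743027) encodes versican, a large chondroitin sulfate proteoglycan of the extracellular matrix that monocytes also make. It measured 15.2, 26.8 and 29.8 CPM in MA9+EV and 2.63, 21.4 and 22.7 CPM in MA9+SETDB1. The log2 fold change was -0.62 with a larger SE, 0.695, and it was -0.10 without MA9+SETDB1 replicate 1 and -0.99 without MA9+SETDB1 replicate 3. It was -0.97 with the replicate block, and the MA9+SETDB1 value was the lower in each same-numbered pair. The arms overlapped, and MA9+SETDB1 replicate 1 was 8.39-fold below the mean of the other libraries of its arm.

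The N-sulfotransferase genes were both higher in every MA9+SETDB1 library. Ndst1 (ENSMUSG00000054008.8, chr18:60684494-60749035), the widely expressed family member, measured 16.6, 45.6 and 45.3 CPM in MA9+EV and 118.8, 113.5 and 110.7 CPM in MA9+SETDB1, a log2 fold change of 1.67 (SE 0.363). Ndst2 (ENSMUSG00000039308.6, chr14:20723730-20734570), required for heparin synthesis in mast cells, measured 23.99, 29.5 and 30.3 CPM in MA9+EV and 194.5, 70.2 and 70.2 CPM in MA9+SETDB1, a log2 fold change of 2.00 (SE 0.424). Without MA9+SETDB1 replicate 1 the Ndst2 value was 1.34. The spread lay in different arms, since Ndst1 varied mainly in MA9+EV, where replicate 1 was low, and Ndst2 mainly in MA9+SETDB1, where replicate 1 was high. Summed over both genes, the libraries held 40.6, 75.2 and 75.7 CPM against 313.3, 183.6 and 180.9 CPM. Ndst2 lies between close neighbours, 0.111 kb from Zswim8 and 0.303 kb from Camk2g. Zswim8 rose by a log2 fold change of 0.54 (SE 0.151, adjusted p = 0.0203), and Camk2g had -0.07 (SE 0.111, adjusted p = 0.643).

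The ratio of Ndst2 to Ndst1 counts followed the replicate number and not the arm. Replicate 1 had a ratio of 1.45 in MA9+EV (95% counting interval 1.27 to 1.65) and 1.64 in MA9+SETDB1 (1.55 to 1.73). Replicates 2 and 3 had ratios of 0.647 and 0.669 in MA9+EV and 0.619 and 0.634 in MA9+SETDB1. In these 6 libraries the replicate 1 ratios were thus above 1 in both arms and all others below 1, while the sum of the pair was higher in every MA9+SETDB1 library. What sets replicate 1 apart was not tested.

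**Figure D2:**
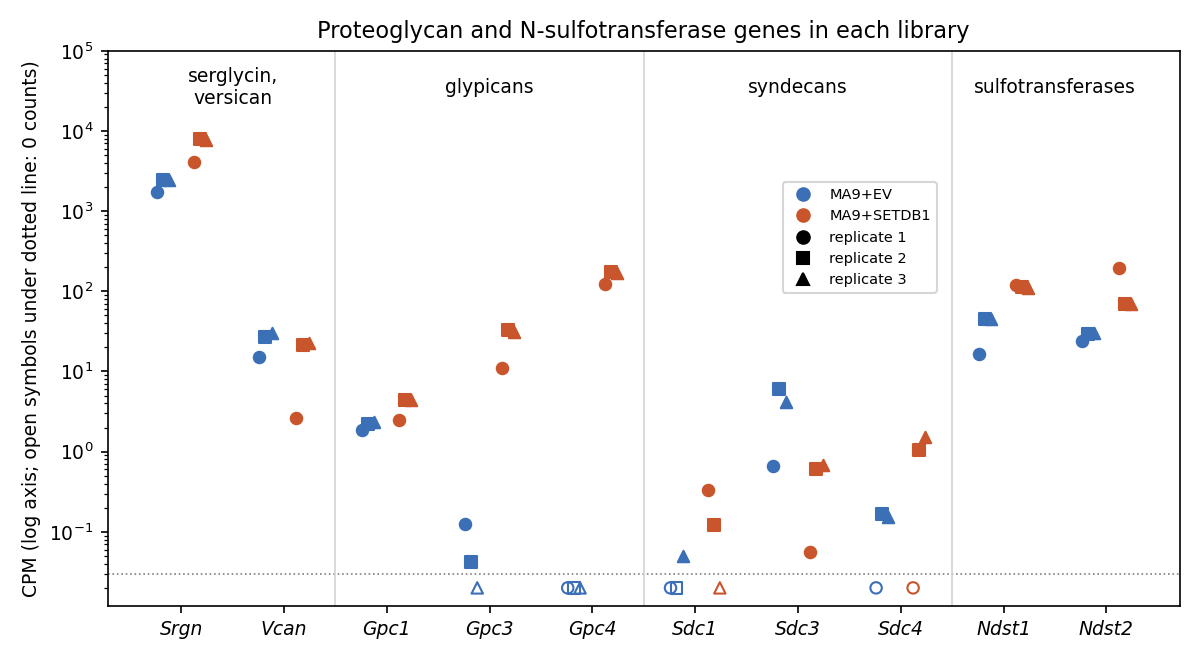
CPM of the 10 genes in each of the 6 libraries (log axis, with libraries at 0 counts drawn as open symbols under the dotted line), in blue for MA9+EV and orange for MA9+SETDB1, with a symbol for each replicate number. Srgn, Gpc3, Gpc4, Gpc1, Ndst1 and Ndst2 have all orange points above all blue points, and the circles of replicate 1 lie apart from the other symbols for Vcan, Sdc3, Ndst1 in MA9+EV and Ndst2 in MA9+SETDB1.

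Of the 10 genes, 8 passed the filter on low counts, Gpc3 and Gpc4 only through MA9+SETDB1. In the fit over 12986 genes, 5 members stood among the genes called higher (Gpc3, Gpc4, Srgn, Ndst1, Ndst2) and Sdc3 among those called lower, while Gpc1 and Vcan were not called. Sdc3 was no longer called when any single library other than MA9+EV replicate 1 was left out, with limma-voom, or with replicates 2 and 3 summed, though it was called with the replicate block, and Srgn was not called with those replicates summed. Gpc1 was called without MA9+SETDB1 replicate 1 (log2 fold change 1.06), and both Gpc1 and Vcan were called with replicate 1 of both arms left out (0.97 and -0.34), an alternative chosen after seeing the data. Of all tested genes, 53.5% were called at an adjusted p under 0.05, 27.4% higher and 26.2% lower. The libraries of the arms did not overlap for 6 members and for 64.6% of all tested genes. Nothing is read from these member counts, since the same contrast chose the genes.

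Replicate 1 departed from the other replicates for many members. Among the 6 members with at least 10 counts in MA9+EV, 3 were over 1.5-fold apart between replicate 1 and the mean of replicates 2 and 3, all lower in replicate 1. Of 12448 tested genes with such counts, 24.4% were that far apart. In MA9+SETDB1 it was 7 of 9 members, 6 of them lower in replicate 1 and Ndst2 higher, against 30.0% of 12483 tested genes. The 7 include Sdc4, which had 0 counts in replicate 1 and was not tested, so it is not among the 12483. Sdc3 was 7.69-fold lower in replicate 1 of MA9+EV and 11.5-fold lower in that of MA9+SETDB1, and Vcan 1.86-fold and 8.39-fold lower. Ndst1 was 2.75-fold lower in MA9+EV replicate 1 and 1.06-fold apart in MA9+SETDB1, Gpc3 was 2.89-fold lower in MA9+SETDB1 replicate 1, and Srgn was 1.42-fold and 1.92-fold lower.

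**Figure D3:**
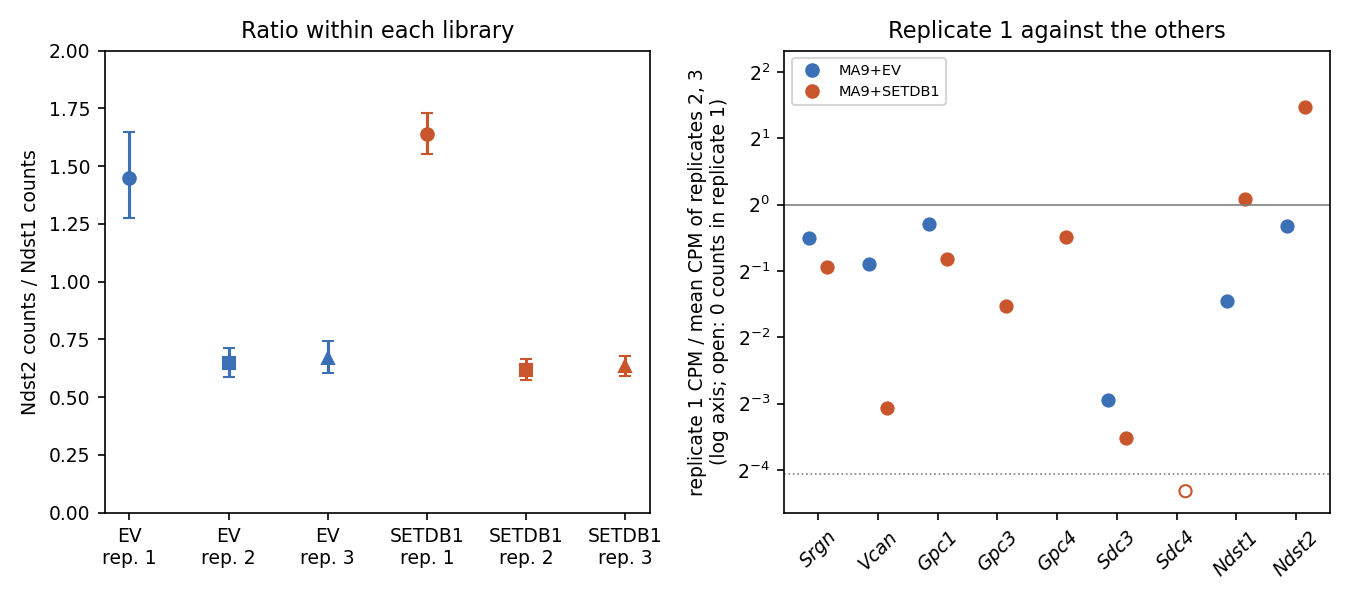
Left, Ndst2 counts divided by Ndst1 counts in each library, with 95% counting intervals. Right, the CPM of replicate 1 divided by the mean CPM of replicates 2 and 3 (log axis) for each member with at least 10 counts in the arm, where Sdc3 and Vcan lie far below 1 and Ndst2 in MA9+SETDB1 lies above it.

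The tested genes whose profiles over the 6 libraries were most like each member's were found by the root mean square difference of centred log2 CPM. Srgn was closest to the PI3-kinase gene Pik3cg (0.066) and the microtubule gene Map4 (0.085). Gpc4 was closest to Cd226 (0.232) and the cytoskeletal gene Add2 (0.357), each at 0 in all MA9+EV libraries. For Gpc3 these were P2ry10 (0.414) and Zfp37 (0.501), for Sdc3 H2-Ob (0.453) and Nlrp10 (0.517), and for Vcan Azin2 (0.258) and 5730409E04Rik (0.266). Ndst1 was closest to the desaturase gene Fads2 (0.090) and Dnal1 (0.131), and Ndst2 to the activin receptor gene Acvr1b (0.127) and the kinase gene Hipk2 (0.140). Both genes nearest Ndst2 also had their highest value in MA9+SETDB1 replicate 1, 144.7 CPM for Acvr1b and 62.2 CPM for Hipk2.

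The other genes of the pathway were taken from 11 lists holding 155 symbols, of which 154 were measured and 30 had no counts in any library. Of the 94 tested, 37 were higher in MA9+SETDB1, 30 were lower and 27 were not called. This made 71.3% called, against 53.5% of all tested genes. The lists were chosen with earlier results of these data known, so nothing is read from the difference between these shares. Some of the 94, among them Hspg2, Tpsb2, Esm1 and Dse, had 0 counts in 1 arm and passed the filter only through the other. Their median log2 fold change was 0.02, against -0.01 over all tested genes. All adjusted p-values below are from edgeR's quasi-likelihood test over all 12986 genes.

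Other heparan sulfate cores changed in both directions. Of 5 tested among 8 listed, 2 rose, 2 fell and Gpc2 was not called (log2 fold change 0.98, SE 0.442, adjusted p = 0.102), with a list median of 0.98. Agrn, encoding agrin, which organizes receptors at the neuromuscular junction, measured 3.76, 16.7 and 14.6 CPM in MA9+EV and 72.6, 110.7 and 108.3 CPM in MA9+SETDB1 (log2 fold change 3.06, SE 0.525, adjusted p = 0.00273). Hspg2, encoding the basement membrane protein perlecan, had no counts in MA9+EV libraries and 5.15, 5.54 and 5.51 CPM in MA9+SETDB1, at least 123-fold higher (adjusted p = 0.000179). Tgfbr3, the TGF-beta co-receptor betaglycan, measured 84.7, 106.1 and 106.0 CPM in MA9+EV and 0.112, 0.122 and 0.156 CPM in MA9+SETDB1 (log2 fold change -9.50, SE 0.216, adjusted p = 1.02e-06). The syndecan gene Sdc2 measured 1.53, 11.9 and 11.6 CPM in MA9+EV. Its only MA9+SETDB1 count was in replicate 1, so the ratio was 435 (95% counting interval 77.8 to 17221, adjusted p = 0.00163).

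Among other chondroitin sulfate and small leucine-rich cores, 6 of 25 were tested, 4 rose and 1 fell, with a list median of 3.76, and 11 had no counts. Thbd, the anticoagulant receptor thrombomodulin, fell from a mean of 28.0 to 3.14 CPM (log2 fold change -3.16, SE 0.578, adjusted p = 0.00358) and was at -4.05 without MA9+SETDB1 replicate 1. Prg2, the eosinophil granule major basic protein gene, rose from 0.251 to 8.72 CPM (log2 fold change 5.04, SE 0.625, adjusted p = 0.000665), and was at 5.74 without MA9+EV replicate 1. Cd74, the invariant chain of antigen presentation, rose from 0.372 to 4.38 CPM (log2 fold change 3.55, adjusted p = 0.000325). The endocan gene Esm1 went from 0 counts over MA9+EV to 58, at least 24.6-fold higher (adjusted p = 0.00143). Prg3, a relative of Prg2 and the remaining riser, is named here after its values were seen (3.98, adjusted p = 0.00636). Aplp2 was not called (-0.54, adjusted p = 0.0786) but passed without MA9+EV replicate 1 (-0.77, adjusted p = 0.00197).

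Linker enzymes were called at 4 of 7 tested genes, 3 higher and 1 lower, with a list median of -0.17. Xylt1, the xylosyltransferase that starts the chain on the core protein, measured 15.9, 5.93 and 6.75 CPM in MA9+EV and 143.2, 119.2 and 109.0 CPM in MA9+SETDB1 (log2 fold change 3.70, SE 0.401, adjusted p = 0.000379), and 4.29 without MA9+EV replicate 1. Its paralog Xylt2 was not called (-0.69, adjusted p = 0.156). The xylose kinase gene Fam20b rose from a mean of 99.3 to 207.1 CPM (log2 fold change 1.06, SE 0.123, adjusted p = 0.000493), and the glucuronosyltransferase gene B3gat3, which completes the linker, rose by 0.69 (adjusted p = 0.00145). Pxylp1, the phosphatase that removes the xylose phosphate added by the Fam20b kinase, measured 116.1, 113.8 and 112.1 CPM in MA9+EV and 0.280, 0.122 and 0.0519 CPM in MA9+SETDB1 (log2 fold change -9.52, SE 0.298, adjusted p = 2.5e-06), and -10.29 without MA9+SETDB1 replicate 1. The kinase and phosphatase genes of the linker xylose thus changed in opposite directions. The galactosyltransferase genes were not called, B4galt7 at -0.17 (adjusted p = 0.235) and B3galt6 at -0.45 (adjusted p = 0.101), although B3galt6 passed without MA9+EV replicate 1 (-0.64, adjusted p = 0.00681).

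Of 5 heparan sulfate polymerase genes, 3 rose and 1 fell, with a list median of 0.77. Extl3, which adds the first glucosamine that commits the chain to heparan sulfate, measured 4.21, 3.32 and 3.63 CPM in MA9+EV and 48.0, 23.1 and 21.7 CPM in MA9+SETDB1 (log2 fold change 3.05, SE 0.358, adjusted p = 0.000521). Ext1 and Ext2, the subunits of the polymerase, rose by 0.96 (SE 0.297, adjusted p = 0.0308) and 0.77 (SE 0.218, adjusted p = 0.0227). Both calls were lost when single libraries were left out. The adjusted p of Ext1 was 0.06, 0.0766, 0.11 and 0.0785 without MA9+EV replicate 1, MA9+EV replicate 2, MA9+SETDB1 replicate 2 and MA9+SETDB1 replicate 3. That of Ext2 was 0.0689, 0.0501 and 0.0684 without MA9+EV replicates 1, 2 and 3, and 0.0762 and 0.0746 without MA9+SETDB1 replicates 2 and 3. Extl2, a transferase that can cap the linker, measured 19.5, 23.3 and 21.0 CPM in MA9+EV and 5.76, 4.14 and 5.40 CPM in MA9+SETDB1 (log2 fold change -2.06, SE 0.195, adjusted p = 0.000212). Extl1 was not called (0.64, SE 0.841, adjusted p = 0.553).

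Genes acting on the chain beside and after the NDST enzymes mostly had lower values. Of 6 tested among 18 listed, 5 fell and 1 rose, with a list median of -2.63. The riser was Hs6st1, a 6-O-sulfotransferase, which measured 21.9, 32.3 and 31.6 CPM in MA9+EV and 106.3, 114.4 and 110.7 CPM in MA9+SETDB1 (log2 fold change 1.95, SE 0.165, adjusted p = 0.000136). Glce, the epimerase that turns glucuronic into iduronic acid, fell from a mean of 36.8 to 10.1 CPM (log2 fold change -1.86, SE 0.224, adjusted p = 0.000584). Hs2st1, which sulfates the uronic acid, fell from 48.9 to 19.9 CPM (log2 fold change -1.30, SE 0.175, adjusted p = 0.000974). Hpse, encoding heparanase, which cuts heparan sulfate chains, measured 14.3, 46.8 and 44.9 CPM in MA9+EV. The MA9+SETDB1 libraries held 1, 1 and 0 counts of it, a 930-fold ratio (95% counting interval 257 to 7685, adjusted p = 0.000136). The remaining fallers, named after their values were seen, were the 3-O-sulfotransferase gene Hs3st3b1 (log2 fold change -3.39, adjusted p = 0.00149) and the heparanase homolog gene Hpse2 (1 count left with SETDB1, ratio 167, 95% counting interval 29.6 to 6609, adjusted p = 0.00181). The higher values of Ndst1 and Ndst2 and of Hs6st1 therefore stood beside lower values of the epimerase and 2-O-sulfotransferase genes.

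**Figure D4:**
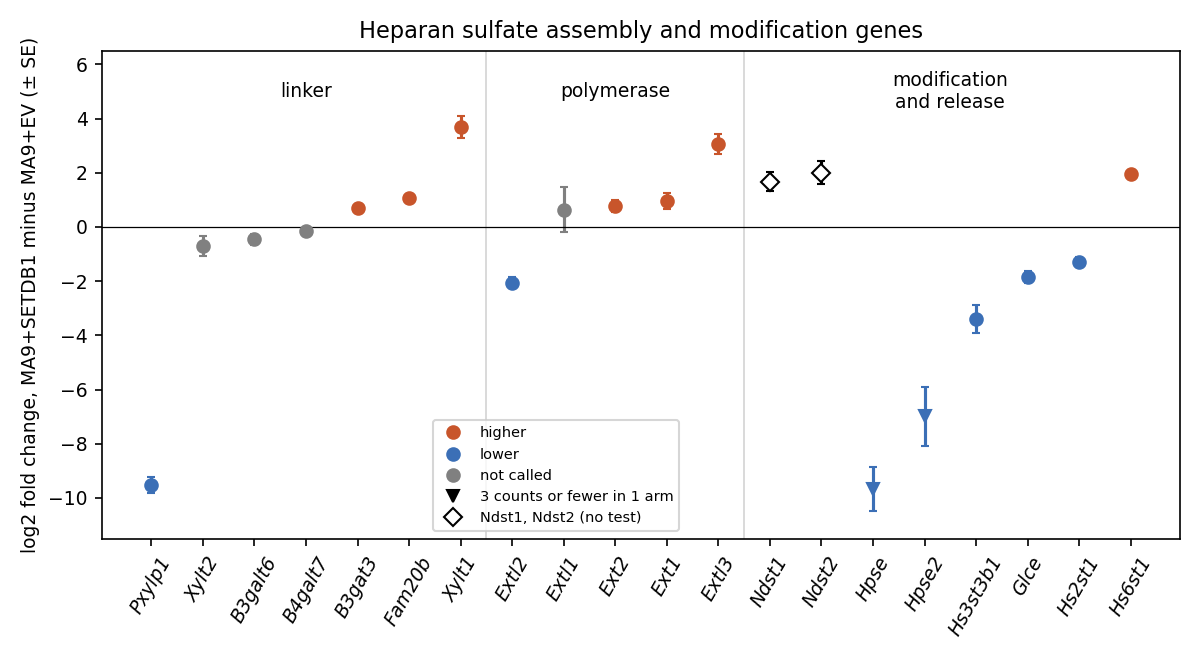
Fitted log2 fold change, MA9+SETDB1 minus MA9+EV, with its SE, for the tested linker, polymerase and modification genes, coloured by the edgeR call, with the members Ndst1 and Ndst2 as open diamonds without a test. Triangles mark genes with 3 counts or fewer in 1 arm, whose fitted value depends on the prior count, and the modification genes other than Ndst1, Ndst2 and Hs6st1 lie below 0.

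Chondroitin and dermatan sulfate enzymes gave 5 higher, 3 lower and 3 uncalled genes of 11 tested, with a list median of 0.47. Chst15, which makes the disulfated chondroitin sulfate E unit known from mast cells, rose from a mean of 15.5 to 143.6 CPM (log2 fold change 3.21, SE 0.252, adjusted p = 9.75e-05). Csgalnact2, which starts the chondroitin chain, rose from 164.8 to 390.0 CPM (log2 fold change 1.24, SE 0.127, adjusted p = 0.00029). The epimerase genes of dermatan sulfate fell: Dse went from 204 counts over MA9+EV to 0, at least 53.4-fold lower (adjusted p = 0.00311), and Dsel fell from 12.8 to 3.57 CPM (log2 fold change -1.84, SE 0.348, adjusted p = 0.00412). Chsy1 and Chst13 were not called (adjusted p = 0.0799 and 0.0872), though Chsy1 passed without MA9+EV replicate 1 (-0.57, adjusted p = 0.00272) and Chst13 without MA9+SETDB1 replicate 1 (0.60, adjusted p = 0.0359). With the replicate block Chst13 also passed (0.48, adjusted p = 0.0117). The epimerase genes of both chain types, Glce, Dse and Dsel, thus all fell.

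Genes that supply sulfate and sugar donors were split, 4 higher, 2 lower and 7 uncalled of 13 tested, with a list median of -0.09. Slc35b2, which carries the sulfate donor PAPS into the Golgi, fell from a mean of 115.3 to 56.8 CPM (log2 fold change -1.02, SE 0.158, adjusted p = 0.00174), whereas the other PAPS carrier gene Slc35b3 rose from 24.4 to 42.4 CPM (0.80, SE 0.177, adjusted p = 0.0083). The sulfate transporter gene Slc26a11 fell from 305 counts over the MA9+EV libraries to 1 over MA9+SETDB1, by a ratio of 240 (95% counting interval 42.7 to 9495, adjusted p = 0.000513). The nucleotide sugar carrier gene Slc35d2 rose by 1.06 (adjusted p = 0.0149), with adjusted p of 0.0551, 0.0537 and 0.0566 without MA9+EV replicate 3, MA9+SETDB1 replicate 2 and MA9+SETDB1 replicate 3. The phosphatase gene Impad1 (adjusted p = 0.19) and Ugp2, which makes UDP-glucose (-0.60, adjusted p = 0.0731), were not called, and Ugp2 passed without MA9+SETDB1 replicate 1 (-0.34, adjusted p = 0.0148).

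Genes listed for breakdown of the sugar chains were split, 6 higher, 7 lower and 5 uncalled of 18, with a list median of -0.16. The hyaluronidase gene Hyal3 rose from a mean of 0.614 to 9.33 CPM (log2 fold change 3.90, SE 0.359, adjusted p = 0.000189). Hexa, which encodes a subunit of the lysosomal enzyme beta-hexosaminidase, fell from 502.3 to 195.7 CPM (-1.36, SE 0.17, adjusted p = 0.000689). Naglu (0.08, adjusted p = 0.867) and Galns (-0.26, adjusted p = 0.188) were not called.

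Hyaluronan genes showed 2 lower and 0 higher of 6 tested by edgeR, with a list median of -0.15. Cemip2, a cell-surface hyaluronidase gene, fell from a mean of 111.6 to 21.3 CPM (log2 fold change -2.39, SE 0.2, adjusted p = 0.00013). Habp4 fell by 0.69 on the log2 scale (adjusted p = 0.0392), and its adjusted p was 0.145 and 0.119 without MA9+EV replicates 2 and 3, 0.116 and 0.118 without MA9+SETDB1 replicates 2 and 3, and 0.0521 with the replicate block. Cd44, the main hyaluronan receptor, measured 138.8, 147.7 and 153.9 CPM in MA9+EV and 163.7, 133.8 and 129.4 CPM in MA9+SETDB1 (-0.04, SE 0.121, adjusted p = 0.775), and the arms overlapped. Hmmr was not called (-0.25, adjusted p = 0.101) and passed with the replicate block (adjusted p = 0.0456).

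Partners and sheddases of syndecans, glypicans and versican included 4 higher, 2 lower and 2 uncalled of 8 tested, with a list median of 0.10. Adam10, a sheddase of many surface proteins, rose from a mean of 240.2 to 581.2 CPM (log2 fold change 1.27, SE 0.126, adjusted p = 0.000254). Tiam1, a Rac exchange factor that binds syndecan tails, rose from 104.6 to 313.4 CPM (1.58, SE 0.147, adjusted p = 0.000195). Cask, a scaffold that binds the same tails, fell from 45.7 to 4.38 CPM (-3.38, SE 0.479, adjusted p = 0.0012). Adamts1, a versican protease, fell from 858 counts over the MA9+EV libraries to 1, by a ratio of 674 (95% counting interval 121 to 26654, adjusted p = 0.000132). Gipc1 (-0.25, adjusted p = 0.32) and Mmp9 (-1.62, adjusted p = 0.0768) were not called, and Mmp9 was at -1.03 without MA9+EV replicate 1 and passed with DESeq2 (-1.63, adjusted p = 0.0272).

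The list of granule proteins stored on serglycin also holds Hdc, whose enzyme makes histamine and is not itself such a protein. All 9 tested genes of 12 listed were called, 5 higher (Hdc among them) and 4 lower. Of these, Cpa3, Hdc, Elane, Prtn3, Ctsg and Pf4 also belong to the marker lists above, so they are not separate evidence from the lineage sums. Of the mast cell proteases, Cma1 and Tpsb2 rose: Cma1 went from 1 count over MA9+EV to 130.3, 125.8 and 127.9 CPM, by a ratio of 8731 (95% counting interval 1567 to 344897, adjusted p = 1.19e-06), and Tpsb2 went from 0 counts to 38.7, 32.8 and 29.8 CPM, at least 765-fold higher (adjusted p = 3.65e-05). Mcpt4, another mast cell protease gene, was at 0 in all 6 libraries, and Tpsab1 had 0 and 3 counts and was not tested. The neutrophil protease genes Elane and Prtn3 fell, Elane from a mean of 6174 to 4.83 CPM (log2 fold change -10.32, SE 0.231, adjusted p = 1.02e-06) and Prtn3 from 2347 to 9.75 CPM (-7.91, SE 0.225, adjusted p = 1.96e-06). Further changed genes, named after their values were seen, were Cpa3 (13.46, adjusted p = 6.09e-05), Hdc (6.01, adjusted p = 0.000507) and Gzmb (3 counts against 16823), which rose, and Ctsg (-5.69, adjusted p = 0.00217) and Pf4 (-2.20, adjusted p = 0.00226), which fell. Srgn itself was higher in every MA9+SETDB1 library beside this exchange of granule genes, and the part of the one in the other was not tested.

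**Figure D5:**
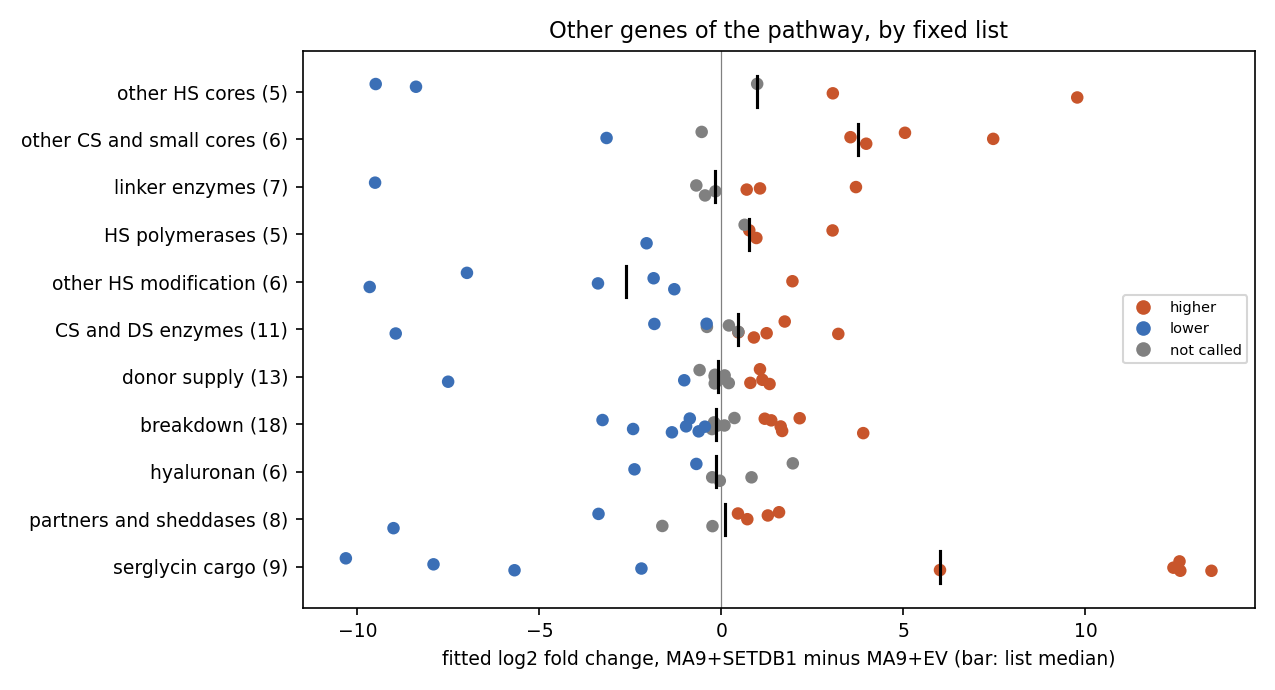
Fitted log2 fold change of each tested gene in the 11 pathway lists, with the number tested in parentheses and the list median as a black bar, where HS is heparan sulfate, CS chondroitin sulfate and DS dermatan sulfate. Most lists hold genes on both sides of 0, and the serglycin cargo list splits into strongly higher and strongly lower genes.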

How the data were processed

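RNA counts were the only files used. Per the labels' protocols, strand-specific poly-A libraries were made, and the authors deposited whole-number read counts per gene, 1 file per library, on GRCm38 per the submitters' processing notes, which name STAR 2.6.0c and HTSeq 0.11.0 without role. Summary lines (24.6% to 26.3% of entries) were left out. Symbols were matched by identifier, 67 of 54146 staying unmatched. Counts were fitted with edgeR 4.0.16 (limma 3.58.1, R 4.3.3): filterByExpr, TMM factors, quasi-likelihood F-test, Benjamini-Hochberg adjustment over 12986 genes, threshold 0.05. CPM uses TMM-scaled totals, and SEs derive from F. The filter left 8 members in the fit. The script was tested on simulated data. Counting intervals are exact 95% binomial, and these and the floor of 3 counts cover counting error only.

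The members and all lists were chosen with earlier results of these data known. Named genes were the members and, per list, up to 4 called genes with the smallest p and 2 uncalled genes with the highest mean CPM. For each tested member whose arm means of log2 CPM differed by over 1 (Vcan included), the 2 genes of most similar profile were also named, as were further genes of lists with at most 5 called. Genes said to be named after their values were seen fall outside this rule, except Prg3, whose list is among those with at most 5 called. Some genes that the rule took are not reported here. Same-numbered libraries deviated together (correlations 0.234, 0.158 and 0.134 over 12986 genes), which meets the criterion for pairing (every correlation over 0.1), although the libraries numbered 2 and 3 correlated across numbers as well (0.142 and 0.166). The reported fit has no replicate block, and the fit with it is an alternative. Replicates 2 and 3 of each arm differed beyond sampling noise (mean chi-square per gene 4.38 and 3.19, against 80.5 to 105.1 for pairs with replicate 1) and were counted as separate samples. Such an excess does not show that they are independent samples, since separate libraries of the same cells could differ this way too. Alternatives were RLE and upper-quartile factors, other count filters, DESeq2 1.42.0, limma-voom, the replicate block, summed replicates 2 and 3, and leave-outs.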

Additional observations from a re-analysis of the deposited data

How the results depend on the processing

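Over 15 alternatives the 57 named pathway genes gave 805 values on the same side of the threshold and in the same direction, 23 that no longer passed, 18 that newly passed and 7 that changed direction. The changes of direction were in uncalled genes near 0. Naglu ranged from -0.243 to 0.321 when single libraries were left out (-0.031 and -0.040 for MA9+SETDB1 replicates 2 and 3), and was at -0.003 with replicate 1 of both arms left out. Cd44 ranged from -0.146 to 0.025 in the same way (0.001 without MA9+SETDB1 replicate 2), and was at 0.021 after summing replicates 2 and 3. Leaving out 1 library at a time gave 2992 to 4231 higher and 2727 to 4063 lower genes, against 3554 and 3397, and 31 to 43 higher and 27 to 34 lower pathway genes, against 37 and 30. After summing replicates 2 and 3 within each arm, 2292 genes were higher and 1928 lower, and 5 named pathway genes no longer passed. Leaving out replicate 1 of both arms, an alternative chosen after seeing the data, gave 5314 higher and 5285 lower. Only replicates 2 and 3 then set the spread. The replicate block gave 3791 higher and 3761 lower, and 37 and 31 pathway genes, and among named genes changed only the calls of Chst13, Hmmr and Habp4.

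Of the fitted member values, 113 stayed within the pooled SD between replicates of the main value and 7 moved further: Gpc3 at 9.74 and 10.11 and Ndst2 at 1.34 and 1.25, each without the library that set it apart and without replicate 1 of both arms, and Gpc4 at 14.22 (DESeq2), 12.76 (limma-voom) and 15.12 (replicates 2 and 3 summed), a value that depends on the prior count. RLE and upper-quartile factors shifted the median of all genes by 0.01 and -0.07. Depth limits Sdc1 and Sdc4, and counts do not show whether a surface core carries its chains.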
